A study of Mus musculus with 6 samples.

Results

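Transcript levels of 35 genes of glycolysis and the hypoxia response were examined in CD4 T cells from spleens of mice labelled wild type (WT) or as a conditional knockout of the splicing factor gene Srsf1 (Srsf1-cKO). The genes were taken by symbol from a fixed list, and all 35 had a row among the 24047 of the count table. They are 21 genes of glucose import, the glycolytic enzymes and lactate export, 4 genes of regulatory kinases, and 10 genes of the hypoxia-inducible factor (HIF) pathway. The study held 6 libraries, 3 per label, from mice of strain B6.129 aged 7 weeks. Naive CD4 cells were activated through CD3 (antibody at 0.5 µg/mL) and CD28 (antibody at 1 µg/mL) during 72 h. A further 4 h followed in 100 ng/mL of the phorbol ester PMA plus ionomycin at 1 µM, which together mimic receptor signals. Both groups shared this treatment, so no unstimulated cells stand beside them. The genotype label of the second group is Srsf1-flox/flox dLck.Cre, a Cre transgene named for the T cell kinase gene Lck. The labels do not say whether WT mice carried Cre or floxed alleles.

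Glycolysis splits glucose into pyruvate, and activated T cells turn much of that pyruvate into lactate even when oxygen is present. HIF-1, a dimer of HIF-1 alpha and ARNT, binds hypoxia response elements and drives most glycolytic genes together with genes that adapt cells to low oxygen. Prolyl hydroxylases mark HIF-1 alpha for destruction when oxygen is plentiful, while T cell receptor and mTOR signals raise its production. MYC drives an overlapping set of glycolytic genes after activation.

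The libraries held between 7781283 and 10184268 gene counts. The count of Srsf1 over the whole gene was not lower under the Srsf1-cKO label. It stood at 495 ± 42.1 CPM (counts scaled to a common library size, mean ± SD, n = 3) in WT and 514 ± 39.1 CPM in the Srsf1-cKO-labelled libraries. Its log2 fold change was 0.06 (SE 0.12, edgeR adjusted p = 0.78, exact permutation p = 0.7, where 0.1 is the smallest that 3 against 3 libraries allow). Counts of single exons were not examined, and a count over the whole gene cannot show whether a part of it was deleted. Groups are therefore called by their labels. The 7 T cell markers summed to between 2103 and 2337 CPM in WT and between 1984 and 2809 CPM in the other group. Of the 7, 1 (Cd3g) was called higher in the Srsf1-cKO-labelled libraries. The erythroid genes Hbb-b1, Hba-a1 and Alas2 and the NK gene Ncr1 had no count in any library. Among markers of other cells, 1 of 4 tested B cell genes (Cd79a) was called higher in the Srsf1-cKO-labelled libraries, beside 8.9% of all genes tested. So were 1 of 2 tested myeloid genes (Lyz2) and the 1 tested dendritic cell gene (H2-Aa). The full B cell, myeloid and dendritic cell lists summed to 1.19 to 6.504, 0.66 to 4.64 and 1.98 to 6.24 CPM in WT, against 7.98 to 19.4, 7.46 to 21.2 and 13.05 to 26.005 CPM. The part of such cells in the results was not tested, and in bulk RNA fewer cells of a type and less RNA per cell cannot be told apart. WT replicate 3 stood apart from WT replicates 1 and 2 in many of the genes described here, and values without it are given where they pass the threshold or move far.

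The 250 bases before the start of 5 genes are shown because they differ in the letters that HIF-1 binds and in how their levels moved. They come from RefSeq (build GRCm38.p6, not the mm9 build of the counts) and are written 5′ to 3′ along the gene's strand, at the most upstream start listed. Capitals mark the core of the hypoxia response element, ACGTG or GCGTG on either strand, with overlapping matches merged.
Pgk1, chrX:106186850-106187099, plus strand: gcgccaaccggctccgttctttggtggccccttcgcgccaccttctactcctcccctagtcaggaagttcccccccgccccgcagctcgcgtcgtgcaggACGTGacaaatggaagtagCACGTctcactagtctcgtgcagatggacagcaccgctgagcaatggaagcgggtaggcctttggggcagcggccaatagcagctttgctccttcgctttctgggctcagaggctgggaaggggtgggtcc
Ldha, chr7:46845554-46845803, plus strand: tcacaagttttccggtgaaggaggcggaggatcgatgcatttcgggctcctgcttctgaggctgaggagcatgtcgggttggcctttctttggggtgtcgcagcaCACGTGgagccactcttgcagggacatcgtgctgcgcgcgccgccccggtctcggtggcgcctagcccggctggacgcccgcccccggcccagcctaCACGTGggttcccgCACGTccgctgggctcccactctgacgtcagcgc
Ankrd37, chr8:45999851-46000100, minus strand: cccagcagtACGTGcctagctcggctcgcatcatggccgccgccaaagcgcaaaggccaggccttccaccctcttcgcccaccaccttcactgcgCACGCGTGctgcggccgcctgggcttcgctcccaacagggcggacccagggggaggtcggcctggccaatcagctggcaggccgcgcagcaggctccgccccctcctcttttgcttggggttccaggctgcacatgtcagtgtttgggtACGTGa
Gpi1, chr7:34230337-34230586, minus strand: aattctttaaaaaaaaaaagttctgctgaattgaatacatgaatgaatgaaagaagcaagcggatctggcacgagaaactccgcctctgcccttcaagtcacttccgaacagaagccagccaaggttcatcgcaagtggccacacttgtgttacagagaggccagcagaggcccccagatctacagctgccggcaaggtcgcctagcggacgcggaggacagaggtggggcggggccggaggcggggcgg
Mxi1, chr19:53310256-53310505, plus strand: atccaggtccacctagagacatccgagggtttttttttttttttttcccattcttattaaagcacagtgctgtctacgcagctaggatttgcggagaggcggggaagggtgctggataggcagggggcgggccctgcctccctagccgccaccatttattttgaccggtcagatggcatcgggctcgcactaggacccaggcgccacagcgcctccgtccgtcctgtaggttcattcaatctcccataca

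Pgk1 had 2 core matches, Ldha 3 and Ankrd37 3, while Gpi1 and Mxi1 had none in this window. In Ldha, 2 of the 3 were part of the E-box CACGTG, the letters that MYC and MXI1 dimers bind, which contain ACGTG. Promoters were listed for 33 of the 35 genes, without Slc2a3 and Bnip3l, and 25 of them (75.8%) held a core match, against 59.6% of 8024 promoters of genes tested and 38.6% of 27025 in all. Among genes that fell by the test below, 2 of 7 with a promoter held a match, and among those tested and not called 21 of 24 did. With every listed start taken into account these became 5 of 7 and 23 of 24, so the choice of start moved the first count. Mxi1 was among the genes that changed, with 1 match at another of its 3 listed starts. Gpi1 had 1 listed start and no match. The E-box occurred in 5 of the 33, or 15.2%, against 8.96% of the promoters of genes tested. The start used in these cells is not known, and a match is a string of letters, not a binding site.

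The comparison asked which of these genes differed between Srsf1-cKO-labelled libraries and WT. Several glycolytic and HIF target genes were lower in the Srsf1-cKO-labelled libraries: Gpi1, Aldoa, Pfkm, Eno2, Mxi1, Ankrd37, Vegfa and Bnip3l fell, and Ldhb rose. The edgeR quasi-likelihood test, fitted on all 10454 genes that passed the filter on low counts, called 8 of the 34 tested genes lower and 1 higher at an adjusted p under 0.05. Over all genes tested, 9.5% were called lower and 8.9% higher. Scaled by library size alone, the whole table had 1268 genes called higher and 709 lower, in place of 930 and 993. Of the 34, it called 6 lower and 2 higher, beside 6.78% and 12.1% of all genes: Pfkm (adjusted p = 0.0685) and Bnip3l (adjusted p = 0.0661) no longer passed, Slc16a1 did (adjusted p = 0.0237), and none of the 34 changed direction. The median log2 fold change was -0.42 over the 20 tested genes from glucose import to lactate export, -0.54 over the 4 regulatory kinases and -0.66 over the 10 HIF genes, against 0.01 over all genes tested. Leaving out WT replicate 2 brought the glycolytic median to -0.24 and the HIF median to -0.16. Eno1 was the only one of the 35 that did not pass the filter. In CPM the groups did not overlap for 7 genes that were lower and 3 that were higher, or 20.6% and 8.82% of the 34, beside 19.5% and 19.9% of all genes tested.

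**Figure D1:**
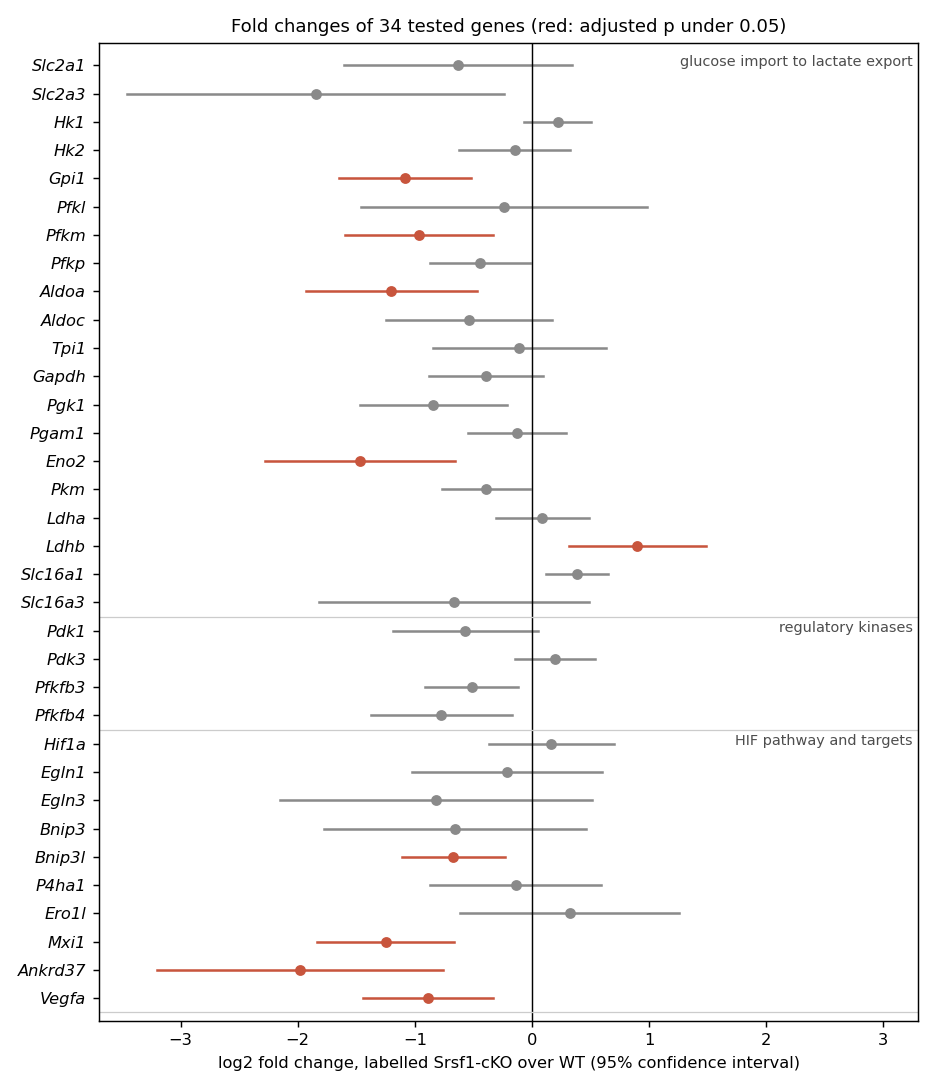
Log2 fold change of each of the 34 tested genes (x axis, Srsf1-cKO-labelled libraries over WT, edgeR, point and 95% confidence interval, n = 3 each), in the order of the pathway from top to bottom. Red marks the 9 genes with an adjusted p under 0.05, of which Ldhb alone lies above 0.

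The calls depended on single libraries. Without WT replicate 1 or Srsf1-cKO replicate 2, none of the 9 passed edgeR (adjusted p up to 0.159 over all fits with 1 library left out), in fits that called 0.754% of all genes higher and 1.08% lower (1.84% together), and 1.23% higher and 0.968% lower (2.2% together). Leaving out WT replicate 2 gave 3 of 34 called lower and 0 higher (8.82% and 0%), beside 9.57% and 9.08% of all genes. Leaving out Srsf1-cKO replicate 3 gave 3 and 0, beside 6.51% and 6.53%, and leaving out Srsf1-cKO replicate 1 gave 5 and 0, beside 5.21% and 5.35%. In the first of these the share called lower was at the level of all genes, and in the second close to it. Leaving out WT replicate 3 gave 18 called lower, beside 10.1%. With the replicate number as a block, 12 were called lower and 1 higher, beside 11.0% and 10.7%. All 9 were among them, but the labels do not say that the numbers pair mice. The direction of all 9 was the same in each of the 6 fits with 1 library left out. On log2(FPKM + 1), FPKM being fragments per kilobase of transcript scaled to library depth, limma called Gpi1 and Mxi1 lower and Ldhb and Slc16a1 higher, beside 6.39% of all 9617 genes lower and 12.3% higher (18.7% together).

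Glucose enters through the transporters GLUT1 (Slc2a1) and GLUT3 (Slc2a3), the latter with the higher affinity. Slc2a3 stood at 1073, 1088 and 239 CPM in WT and at 434, 175 and 58.7 CPM in the Srsf1-cKO-labelled libraries. WT replicates 1 and 2 were above the others, and WT replicate 3 lay inside the range of the second group. Its log2 fold change of -1.85 was among the largest of the 34, but its SE of 0.71 left it short of the threshold (edgeR adjusted p = 0.1). Without WT replicate 3 it was -2.30 (adjusted p = 0.0264), and without Srsf1-cKO replicate 1 it was -2.78 (adjusted p = 0.0384). Without WT replicate 2 it was -1.57 (adjusted p = 0.195). Slc2a1 stood at 442, 446 and 133 CPM in WT and 286, 240.3 and 133 CPM in the other group. Its log2 fold change of -0.63 (SE 0.43, adjusted p = 0.325) was -1.03 (adjusted p = 0.0263) without WT replicate 3. It was -0.40 (adjusted p = 0.586) without WT replicate 2.

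Hexokinase traps glucose as glucose 6-phosphate. Hk1, the more constant form of most tissues, stood at 179, 178 and 218 CPM in WT and between 217 and 229 CPM in the other group (log2 fold change 0.22, SE 0.13, adjusted p = 0.252). Hk2, the inducible form, stood at 496, 505 and 327 CPM in WT and at 455, 439.8 and 305 CPM (log2 fold change -0.15, 95% confidence interval -0.62 to 0.32). The replicates numbered 3 were the lowest of each group for Hk2.

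Gpi1, which turns glucose 6-phosphate into fructose 6-phosphate, fell. Its CPM was 1226, 1364 and 679.9 in WT and 621, 452 and 469 in the Srsf1-cKO-labelled libraries. All 3 of these lay below the lowest WT library, by a small margin to WT replicate 3. The log2 fold change was -1.08 (SE 0.25, adjusted p = 0.0214), and the call was also lost without Srsf1-cKO replicate 3. The limma fit on log2(FPKM + 1) gave a difference of -0.93 (SE 0.26, adjusted p = 0.0404).

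Phosphofructokinase commits the sugar to glycolysis, and it has 3 subunit genes. Pfkm, the muscle form and the least abundant here, fell from 23.7, 39.9 and 37.3 CPM to 14.05, 13.4 and 24.03 CPM. WT replicate 1 and Srsf1-cKO replicate 3 lay almost level, so the groups overlapped. The log2 fold change was -0.97 (SE 0.28, adjusted p = 0.0436), and of the fits with 1 library left out it passed only without Srsf1-cKO replicate 3. Pfkl, the liver form, was near 180 CPM in WT replicates 1 and 2 (183 and 178) and at 32.9 CPM in WT replicate 3, with 132, 139.7 and 63.1 CPM in the other group (log2 fold change -0.24, SE 0.54). Without that WT library it was -0.71 (adjusted p = 0.106). Pfkp, the platelet form and the most abundant, stood at 516 ± 62.4 CPM in WT and 379 ± 93.3 CPM (SD, n = 3 each, log2 fold change -0.44, adjusted p = 0.132).

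Aldolase splits fructose 1,6-bisphosphate into triose phosphates. Aldoa fell from 2411, 3190.1 and 1103 CPM to 1122, 908 and 889 CPM. WT replicate 3 was just below the highest library of the other group. Its log2 fold change was -1.20 (SE 0.32, adjusted p = 0.0351) with all libraries and -1.54 (SE 0.16, adjusted p = 0.00185) without WT replicate 3, the only fit with 1 library left out in which it passed. The Aldoa-like genes Aldoart1 and Aldoart2, named after their values were seen, had log2 fold changes of -1.19 (adjusted p = 0.0356) and -1.01 (adjusted p = 0.109). Whether reads of the 3 genes were split was not tested. Aldoc stood at 51.4 ± 20.03 and 35.4 ± 12.8 CPM (log2 fold change -0.54, adjusted p = 0.251). Tpi1, which interconverts the triose phosphates, stood at 523, 635 and 217 CPM in WT and 457, 460.1 and 359 CPM (log2 fold change -0.11, SE 0.33), and without WT replicate 3 it was -0.46 (adjusted p = 0.0714).

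In the lower, energy-yielding stretch of the pathway, Gapdh, which makes 1,3-bisphosphoglycerate, stood at 866 ± 270.1 CPM in WT and 659 ± 46.9 CPM (log2 fold change -0.39, adjusted p = 0.227). Pgk1, the first ATP-forming enzyme, stood at 882, 910.0 and 415 CPM in WT and at 497, 379 and 355 CPM, with a log2 fold change of -0.84 (SE 0.28, adjusted p = 0.0654). Without WT replicate 3 the values were -0.64 for Gapdh (adjusted p = 0.0153) and -1.14 for Pgk1 (adjusted p = 0.00337). Without WT replicate 2 they were -0.19 (adjusted p = 0.545) and -0.67 (adjusted p = 0.151). Pgam1, a mutase, stood at 55.6 ± 13.4 and 50.98 ± 3.15 CPM, a log2 fold change of -0.13 (95% confidence interval -0.54 to 0.29). Pkm, pyruvate kinase, stood at 2406, 2506 and 1691 CPM in WT and 1723, 1522 and 1792 CPM (log2 fold change -0.39, adjusted p = 0.13). It was -0.57 (adjusted p = 0.0161) without WT replicate 3 and -0.30 (adjusted p = 0.278) without WT replicate 2. The counts cannot tell the M1 and M2 splice forms of Pkm apart.

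The enolase genes could be followed only in part. Eno1 had 0 counts in 5 libraries and 1 count in Srsf1-cKO replicate 3, and Eno1b, a near-identical gene named after its values were seen, had 1, 1 and 4 counts in WT and 2, 1 and 218 in the other group. In the FPKM table the pair was abundant, at 529.7, 536 and 382 FPKM in WT and 473, 477 and 497 FPKM summed over both. Eno1 alone stood at 40.9 ± 6.27 and 36.9 ± 4.67 FPKM, a difference of -0.14 on the log2(FPKM + 1) scale (SE 0.16, limma adjusted p = 0.556). Eno2, the neuronal form and a HIF target, was low and fell from 21.0, 14.2 and 37.2 CPM to 8.64, 6.25 and 11.2 CPM, with no overlap. Here WT replicate 3 was the highest library, unlike in most of the other genes. The log2 fold change was -1.47 (SE 0.36, adjusted p = 0.026), and -1.03 (adjusted p = 0.0341) without WT replicate 3, and the call was also lost without Srsf1-cKO replicate 1.

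Counts and FPKM also stood apart for Pgk1 and Pgam1. The transcript length at which a gene's counts match its FPKM was 503 bases for Pgk1 and 237 bases for Pgam1, or 27.6% and 13.3% of the longest coding transcript in GENCODE M21. For the other 32 genes besides Eno1 this share lay between 68.4% and 140.0%, and it was under 40% for 3.07% of 7099 genes with a mean count of at least 100. Counts of Pgk1 and Pgam1, which have processed copies elsewhere in the genome, thus stand for fewer reads than their FPKM. The FPKM differences of both (-0.63, SE 0.28, and -0.02, SE 0.17) had the same sign as the count result and did not pass limma (adjusted p = 0.145 and 0.931).

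Lactate dehydrogenase turns pyruvate into lactate, which leaves through monocarboxylate transporters. Ldha, the muscle form that favours lactate, stood at 1660.3, 1583 and 1043 CPM in WT and 1508, 1501 and 1545 CPM in the Srsf1-cKO-labelled libraries. The log2 fold change was 0.09 (95% confidence interval -0.31 to 0.48, adjusted p = 0.753). Ldhb, the heart form, rose from 9.62, 8.71 and 10.6 CPM to 14.6, 14.1 and 25.2 CPM without overlap (log2 fold change 0.90, SE 0.26, adjusted p = 0.0427). That call was lost with any single library left out, and without Srsf1-cKO replicate 3, its highest library, the log2 fold change was 0.57 (adjusted p = 0.0868).

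Slc16a1, the gene of the lactate transporter MCT1, stood at 491, 484 and 565 CPM in WT and at 671, 661 and 679 CPM, again without overlap. It lay at the edge of the threshold with a log2 fold change of 0.39 (SE 0.12, edgeR adjusted p = 0.0512). It passed by limma on log2(FPKM + 1) with a difference of 0.49 (SE 0.11, adjusted p = 0.0261). The median over all genes was 0.10 in that FPKM fit, against 0.01 in the count fit, so the 2 values differ in scaling. Slc16a3, the gene of the HIF-induced exporter MCT4, stood at 105, 93.9 and 19.5 CPM in WT and at 62.5, 44.1 and 31.8 CPM (log2 fold change -0.66, SE 0.51, adjusted p = 0.383). It was -1.13 without WT replicate 3 and passed (adjusted p = 0.0142), and -0.45 (adjusted p = 0.612) without WT replicate 2. WT replicate 3 was the lowest of all 6 libraries for Slc16a3 and the highest WT library for Slc16a1.

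**Figure D2:**
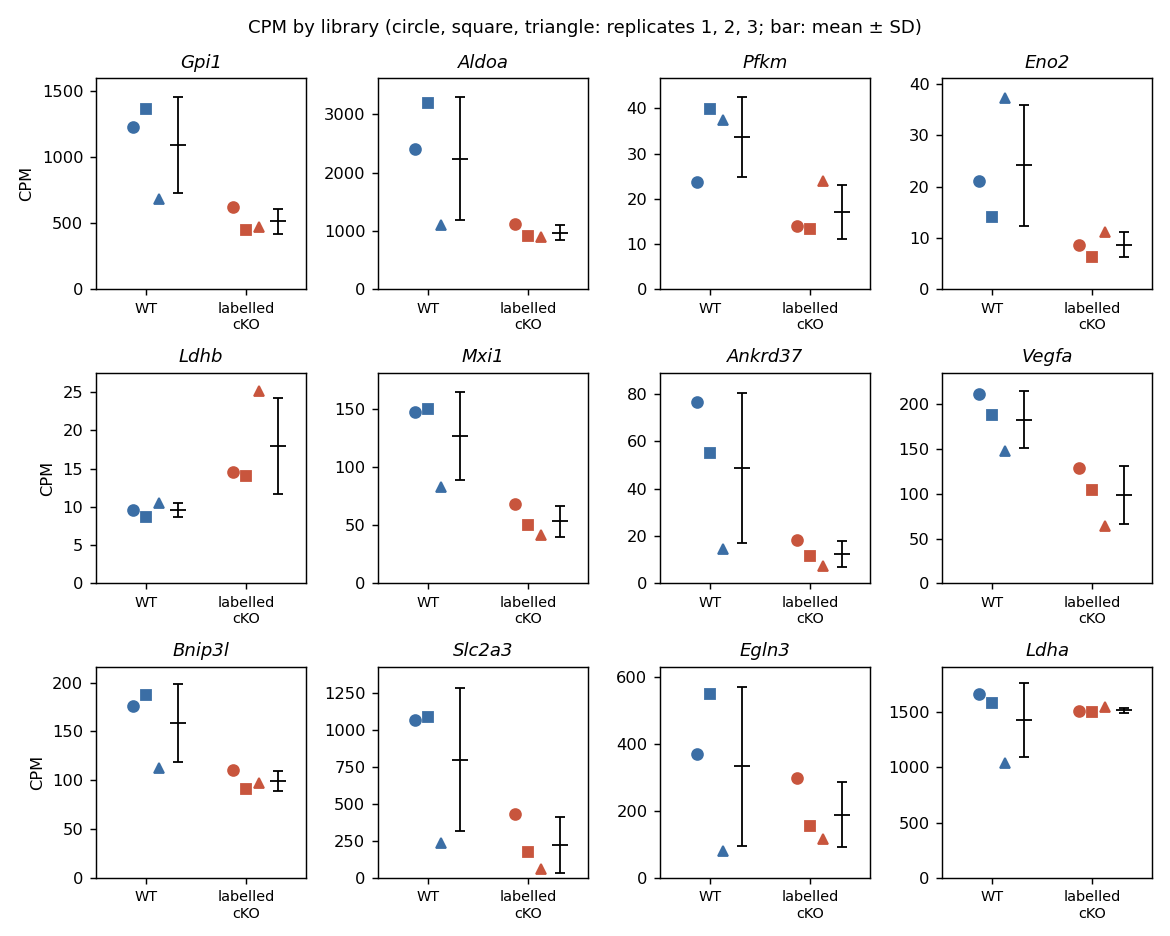
CPM in each library (y axis, from 0) of the 9 called genes and of Slc2a3, Egln3 and Ldha, by label (x axis), with symbols for replicates 1 to 3 and the mean ± SD (n = 3) beside them. In Gpi1, Aldoa, Ankrd37, Slc2a3 and Egln3 the WT triangle (replicate 3) lies far below the other WT points.

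The 4 regulatory kinases set the flow around the pathway. PDK1 and PDK3 switch off pyruvate dehydrogenase and so keep pyruvate out of the mitochondria, and PFKFB3 and PFKFB4 make the fructose 2,6-bisphosphate that activates phosphofructokinase. None of the 4 passed edgeR with all libraries. Pfkfb3 stood at 167, 128 and 105 CPM in WT and at 97.6, 96.2 and 85.98 CPM, without overlap (log2 fold change -0.52, SE 0.17, adjusted p = 0.0698). Pfkfb4, at under 7 CPM, had a log2 fold change of -0.77 (SE 0.27, adjusted p = 0.0748), also without overlap. Pdk1 stood at 186, 265 and 109 CPM in WT and 143, 117 and 118 CPM (log2 fold change -0.57, adjusted p = 0.176), and Pdk3 between 29.5 and 35.5 CPM in WT and between 35.8 and 41.5 CPM (log2 fold change 0.195, adjusted p = 0.384). Without WT replicate 3, Pfkfb3 (-0.68), Pfkfb4 (-0.94) and Pdk1 (-0.86) passed, with adjusted p of 0.0179, 0.0423 and 0.0133. Without WT replicate 2 they were -0.55, -0.74 and -0.24 and did not pass, with adjusted p of 0.0906, 0.114 and 0.492.

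Hif1a, the gene of HIF-1 alpha, which is controlled mostly after translation, did not pass. It stood at 1035, 1508 and 766 CPM in WT and 1464, 1048 and 1199.8 CPM in the Srsf1-cKO-labelled libraries (log2 fold change 0.17, 95% confidence interval -0.37 to 0.70, adjusted p = 0.648). Of its prolyl hydroxylases, Egln1 stood at 210.4, 251 and 94.8 CPM and at 206, 175 and 98.0 CPM (log2 fold change -0.22, SE 0.36, and -0.55 with adjusted p = 0.172 without WT replicate 3). Egln3, itself a strong HIF target, spread most widely, at 371, 550.2 and 78.8 CPM in WT and 298, 155 and 115 CPM (log2 fold change -0.82, SE 0.59, adjusted p = 0.354). Without WT replicate 3 its log2 fold change was -1.30 (adjusted p = 0.0301), and without WT replicate 2 it was -0.26 (adjusted p = 0.789).

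Of the 7 HIF targets outside glycolysis, 4 fell, beside 9.5% of all genes called lower. Mxi1, which encodes a MAX partner that opposes MYC, had the smallest adjusted p of the 34, with 148, 150.1 and 83.1 CPM in WT and 68.4, 50.4 and 41.5 CPM in the other group. The groups did not overlap, and the log2 fold change was -1.25 (SE 0.26, adjusted p = 0.0151). It passed in 4 of the 6 fits with 1 library left out, with values from -1.50 to -1.10, and by limma on log2(FPKM + 1) (-1.03, SE 0.25, adjusted p = 0.028). Ankrd37, an ankyrin repeat gene strongly induced by hypoxia, fell from 76.7, 54.9 and 14.6 CPM to 18.4, 11.5 and 7.42 CPM. WT replicate 3 lay between the 2 highest libraries of the other group, so the groups overlapped. Its log2 fold change of -1.98 (SE 0.54, adjusted p = 0.0369) was the lowest of the 34, and the call was also lost without WT replicate 2 or Srsf1-cKO replicate 3.

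Vegfa, the gene of the angiogenic growth factor, fell from 211, 188 and 148 CPM to 128, 104 and 63.7 CPM without overlap (log2 fold change -0.89, SE 0.24, adjusted p = 0.0377). Without WT replicate 2 or Srsf1-cKO replicate 3 it did not pass. Bnip3l, which encodes the mitophagy receptor NIX, fell from 176, 187 and 113 CPM to 111, 90.7 and 97.1 CPM (log2 fold change -0.67, SE 0.19, adjusted p = 0.0428). Its groups were parted only by the small gap between WT replicate 3 and Srsf1-cKO replicate 1, and of the fits with 1 library left out it passed only without WT replicate 3. Under upper-quartile scaling or library size alone it did not pass either.

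The other 3 targets did not pass with all libraries. Bnip3, a paralog of Bnip3l, stood at 59.8, 104 and 21.2 CPM in WT and 58.02, 33.6 and 26.0 CPM (log2 fold change -0.66, SE 0.49). Its log2 fold change was -1.08 (adjusted p = 0.049) without WT replicate 3 and -0.06 (adjusted p = 0.936) without WT replicate 2. P4ha1, a collagen prolyl hydroxylase subunit, stood at 247, 292 and 112 CPM in WT and 236, 210.4 and 145 CPM (log2 fold change -0.14, SE 0.32), and without WT replicate 3 it was -0.47 (adjusted p = 0.132). Ero1l encodes an oxidase that helps proteins form disulfide bonds in the endoplasmic reticulum. Of the HIF targets outside glycolysis counted above, it was the only one with a value above 0. It stood at 489, 550.1 and 222 CPM in WT and 766, 557 and 252 CPM (log2 fold change 0.32, SE 0.41, adjusted p = 0.61). For Ero1l both replicates numbered 3 were far below the rest of their groups.

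WT replicate 3 held less than 50% of the CPM of each other WT library in 13 of the 34 tested genes, a comparison chosen after the values were seen, and such a gap occurred in 2.41% of all genes tested. The 13 were Slc2a1, Slc2a3, Pfkl, Aldoa, Tpi1, Pgk1 and Slc16a3 among 20 glycolytic genes, and Egln1, Egln3, Bnip3, P4ha1, Ero1l and Ankrd37 among 10 HIF genes. Against the mean of WT replicates 1 and 2, its log2 ratio was -2.55 for Egln3, -2.46 for Pfkl, -2.35 for Slc16a3, -2.18 for Slc2a3 and -2.17 for Ankrd37. The median of this ratio was -1.25 over the HIF genes, -0.68 over the glycolytic genes and -0.01 over all genes tested. It was above both other WT libraries in Hk1, Eno2, Ldhb, Slc16a1 and Pdk3. Srsf1-cKO replicate 3 was the lowest of its group in 20 of the 34, beside 40.1% of all genes tested.

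In 25 of the 34 genes all Srsf1-cKO-labelled libraries lay below both WT replicates 1 and 2, which held for 25.8% of all genes tested. This comparison was also chosen after the values were seen, and it sets aside the WT library that was low in these genes. It therefore adds no separate evidence, and the same limit holds for the calls without WT replicate 3 below. With all 6 libraries, 20.6% of the 34 were lower without overlap, beside 19.5% of all genes tested. In 11 of the 25 (Slc2a1, Pfkl, Tpi1, Gapdh, Ldha, Slc16a3, Pdk1, Egln1, Egln3, Bnip3 and P4ha1) WT replicate 3 was lower still than every library labelled Srsf1-cKO, a pattern found in 1.87% of all genes. Without WT replicate 3, edgeR called 18 of the 34 lower and 1 (Slc16a1) higher, beside 10.1% and 8.47% of all genes. The median log2 fold change was then -0.67 over the glycolytic genes and -0.96 over the HIF genes, against 0.01 over all. The total of the 21 glycolytic genes was 6863, 8044 and 4005 FPKM in WT and 5068, 4567 and 4399 FPKM in the other group, or 1.01%, 1.27% and 0.652% of all FPKM against 0.855%, 0.769% and 0.718%. The lowest and both of the highest totals were WT libraries. WT replicate 3 also held the lowest summed B cell and myeloid markers (1.19 and 0.66 CPM) and the highest CD8 markers (42.5 CPM, against 16.7 to 25.3 CPM in the other libraries), whose part in its low values was not tested.

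**Figure D3:**
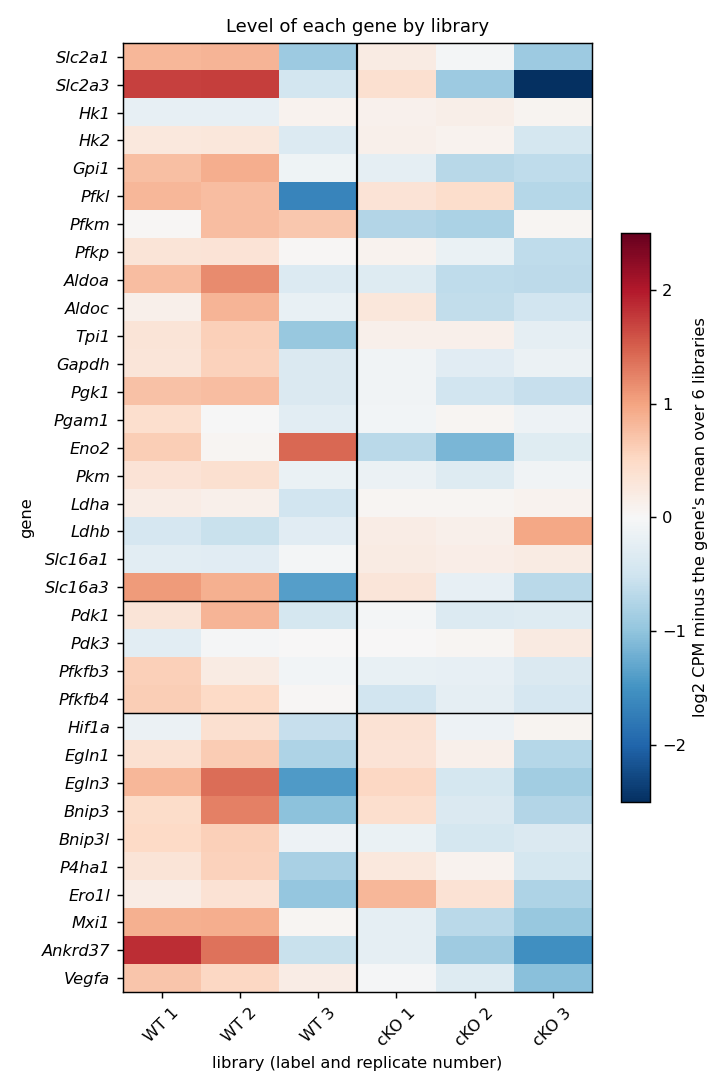
Log2 CPM of each of the 34 tested genes (rows, in pathway order, with lines between the 3 classes) in each library (columns), minus the gene's mean over the 6 libraries. WT replicates 1 and 2 are high for most rows, while WT replicate 3 is low for genes such as Pfkl, Slc16a3 and Egln3 and high for Eno2.

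Which isoenzyme supplied a step was compared per transcript length, as the share of a gene in the summed FPKM of its step. Slc2a3 made up 60.6%, 60.6% and 53.1% of the 2 glucose transporter transcripts in WT and 48.9%, 31.5% and 21.8% in the Srsf1-cKO-labelled libraries. These shares did not overlap, although WT replicate 3 was low in both transporters. Hk1 made up 32.3%, 31.8% and 47.0% of the hexokinase transcripts in WT and 39.4%, 41.1% and 48.7% in the other group, with overlap. Pfkp led phosphofructokinase in every library, at 68.9% to 83.3%, and Pfkl ranged from 6.71% in WT replicate 3 to 27.1%. Aldoc never passed 3.62% of aldolase.

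Ldhb was a small part of lactate dehydrogenase, at 0.943%, 1.08% and 1.56% in WT and 1.48%, 1.51% and 2.56% in the other group, and WT replicate 3 overlapped with it. The MCT4 gene Slc16a3 made up 28.8% and 27.0% of the lactate transporter transcripts in WT replicates 1 and 2, 6.02% in WT replicate 3 and 15.0%, 11.4% and 8.16% in the other group. Pdk3 made up 30.4%, 27.0% and 47.0% of its pair with Pdk1 in WT and 40.4%, 46.3% and 49.6%. In each of these pairs WT replicate 3 lay nearer to the Srsf1-cKO-labelled libraries, or beyond them, than to its own group. The share of Pfkfb4 in its pair with Pfkfb3 was 5.55%, 6.77% and 5.45% in WT and 4.29%, 5.37% and 5.11%, without overlap but with little distance.

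**Figure D4:**
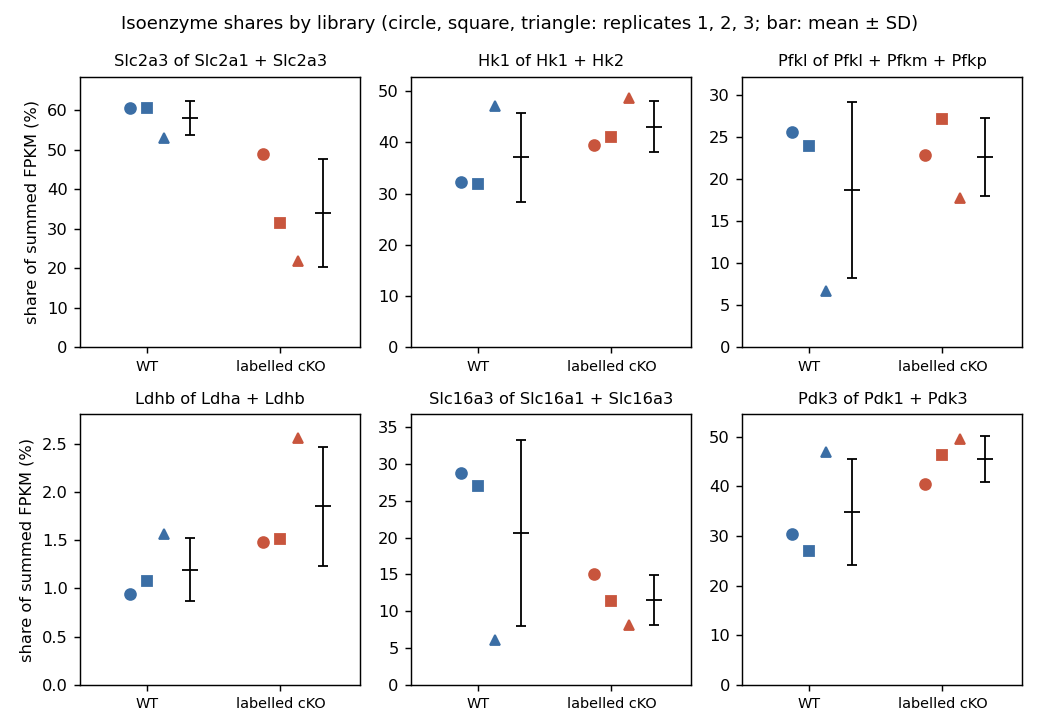
Share (y axis, percent of summed FPKM, from 0) of 1 gene in the transcripts of its step, by label (x axis), with symbols for replicates 1 to 3 and the mean ± SD (n = 3). The Slc2a3 panel is the only one of the 6 in which the groups do not overlap.

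Ranked by FPKM, Pgk1 (1377 ± 495 in WT, 856 ± 151 in the Srsf1-cKO-labelled libraries) and Aldoa (1192 ± 581 and 555 ± 68.3) were the most abundant transcripts of the 35 in WT. Pkm (835 ± 178 and 684 ± 43.3), Ldha (744 ± 169 and 852 ± 20.7) and Gapdh (717 ± 226 and 588 ± 39.3) followed, and these neighbours in WT did not differ beyond their spread. Gpi1 came next (319 ± 107 and 161 ± 27.9). The lowest were Pfkfb4 (1.26 ± 0.288 and 0.785 ± 0.110) and Eno2 (6.21 ± 3.09 and 2.47 ± 0.703). In the Srsf1-cKO-labelled libraries, Aldoa stood below Ldha, Pgk1 and Pkm. Its mean was also below that of Gapdh, but not beyond their spread. In Srsf1-cKO replicate 1, Aldoa was the higher of these 2, at 632 FPKM against 622 FPKM.

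Genes near the pathway were read from further lists. Of 28 tested further HIF targets 8 fell, beside the 9.5% of all genes that were called lower. The median log2 fold change over the 28 was -0.50. Without WT replicate 3, 13 fell, beside 10.1% of all genes in that fit. Plin2, a lipid droplet coat gene, fell from 16.03, 9.495 and 14.9 CPM to 3.13, 3.79 and 4.51 CPM (log2 fold change -1.82, SE 0.27, adjusted p = 0.00734). Bhlhe40, a transcription factor gene of effector T cells, fell from 844, 836 and 625 CPM to 379, 297 and 459 CPM (log2 fold change -1.02, SE 0.19, adjusted p = 0.0113). The other 6 that fell, named after their values were seen, were Adm, Kdm3a, P4ha2, Jmjd6, Kdm4b and Ddit4, with log2 fold changes from -1.69 to -0.75. None of the 8 overlapped between groups in CPM, with WT replicate 3 included. Over all genes tested, 19.5% were lower without overlap. The 8 were picked by a call from the same libraries, so the lack of overlap adds no separate evidence. The most abundant of the 28, Ndrg1, had 876 ± 296 CPM in WT and 576 ± 119.7 CPM in the other group (adjusted p = 0.112).

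Among 17 tested HIF subunits and oxygen-sensing regulators edgeR called 1 lower and 0 higher, beside 9.5% and 8.9% of all genes. Without WT replicate 3 it called 2 lower, beside 10.1%. At an unadjusted edgeR p under 0.05 there were 6 with all libraries. DESeq2 called 3 of 18, Ep300 and, named after their values were seen, Hif3a and Siah2. Ep300, the gene of a coactivator of HIF and of many other factors, was the 1 called by edgeR with all libraries. It fell from 219.8, 176 and 247 CPM to 126, 119 and 82.2 CPM (log2 fold change -0.97, SE 0.19, adjusted p = 0.0131). Of 11 tested genes of the MYC network only Mxi1 passed, a share near the 9.5% of all genes called lower, and Myc itself stood at 1301 ± 229 and 1027 ± 223 CPM (log2 fold change -0.34, adjusted p = 0.225).

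Of 11 tested genes around the entry of pyruvate into the mitochondria, 4 rose and 0 fell, with a median log2 fold change of 0.48, beside 8.9% of all genes called higher. The list also holds genes of further PDK kinases, which act against this entry, and of malic enzymes. Its median is therefore not a measure of pyruvate entry. Only 1 of the 11 rose without WT replicate 3, which is near the 8.47% of all genes called higher there. Pdhx, a structural part of the pyruvate dehydrogenase complex, rose from 18.2, 15.1 and 17.7 CPM to 31.98, 33.04 and 29.2 CPM (log2 fold change 0.88, SE 0.16, adjusted p = 0.0106). Mpc2, a subunit of the mitochondrial pyruvate carrier, rose from 12.3 ± 1.57 to 21.9 ± 5.91 CPM (adjusted p = 0.0365), and Me2, a malic enzyme, from 67.2 ± 14.5 to 108.7 ± 15.2 CPM (adjusted p = 0.0312). The fourth, named after its value was seen, was Pdp1, a phosphatase that reverses the action of the PDK kinases (log2 fold change 0.48, adjusted p = 0.0437). Pdha1, the most abundant, stood at 281 ± 14.8 and 286 ± 16.1 CPM.

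Of 8 tested genes of the pentose phosphate pathway 0 passed edgeR, beside 18.4% of all genes called in either direction. At an unadjusted p under 0.05 there was 1, and DESeq2 called 1, Rpia, named after its values were seen. The most abundant, Tkt, had a log2 fold change of -0.09 (adjusted p = 0.685). Of 9 tested other isoenzymes and side branches of glycolysis 1 rose and 1 fell, each close to the 8.9% and 9.5% of all genes. Slc2a6, a lysosomal hexose transporter gene, rose from 0.332, 1.56 and 0.264 CPM to 8.43, 9.82 and 6.48 CPM (log2 fold change 3.52, SE 0.53, adjusted p = 0.00718). Galm, which turns one form of galactose or glucose into the other, fell from 11.5, 9.24 and 42.5 CPM to 3.13, 6.03 and 7.32 CPM (adjusted p = 0.0487), with WT replicate 3 the highest. DESeq2 and limma-voom did not call Galm, while both called Slc2a6. The most abundant was Pgm2, with 87.0 ± 33.3 and 60.2 ± 12.2 CPM (adjusted p = 0.219).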

How the data were processed

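RNA was sequenced from 6 libraries, 3 labelled WT and 3 labelled Srsf1-cKO, with single-end reads of 75 bases from a stranded mRNA kit, per the labels and the series' design text. The authors deposited whole-number read counts per gene symbol without normalization, and a table of FPKM values that is named as counts, a unit read from the values. STAR 2.4.2a stands in the header of the deposited alignment report, and Cufflinks and the build mm9 are named in the submitters' processing notes. Not given in the sources used here are the annotation, the counter, its strand setting and its treatment of reads with several matches. Reads of near-identical copies are therefore uncertain (Eno1, Pgk1, Pgam1, Gapdh, Aldoa and others). Deposited alignment metrics, which mix read numbers and percent values, gave 14.93% to 17.02% of reads with several matches per library.

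The count model was edgeR 4.0.16 under R 4.3.3 (filterByExpr, TMM, quasi-likelihood, two-sided, genotype as the only term, Benjamini-Hochberg over all tested genes). The FPKM model was limma-trend 3.58.1 on log2 FPKM with a pseudocount of 1, kept to genes that reached 1 FPKM in 3 or more libraries. Changes of low genes come out too small on that scale. The libraries are labelled as separate samples and the design text gives 3 mice per genotype. Alternatives were other scalings and filters, DESeq2 1.42.0, limma-voom, a replicate block, each library left out, other thresholds and the FPKM table. The members, lists and tests were chosen with earlier results of these data known. The genes named are all 35 members, Srsf1, and for each other list up to 3 called genes with the smallest adjusted p and the most abundant one. The edgeR and limma fits were tested on simulated data. All per-sample columns were used. A result within the list of further HIF targets is not reported here. With 3 libraries a group, precision is limited by the spread between libraries more than by depth.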

Additional observations from a re-analysis of the deposited data

How the results depend on the processing

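All 9 called genes kept their direction in all 18 alternatives, with 97 of 162 values past the threshold. Of 447 values for the genes not called, 28 passed and 28 changed sign. All genes called, 1923, became 2972 at an adjusted p under 0.1, 279 at 0.01, 213 on unfiltered log2(FPKM + 1), and 195 to 1989 with 1 library left out. Scaling by library size moved the median over all genes to 0.11 and called 1268 higher and 709 lower (64.1% higher, against 48.4%). The count called lower, 8, became 5 by limma-voom, 2 in both filtered FPKM fits, 0 without that filter, 0 at 0.01, and 0 to 18 with 1 library left out. By limma-voom the calls of Aldoa, Bnip3l, Ankrd37 and Ldhb were lost, and Slc16a1 was called higher. The count called higher, 1, became 2 with upper-quartile scaling, library size, a mean CPM of at least 5, DESeq2, both filtered FPKM fits and 0.1, became 0 in the unfiltered FPKM fit and at 0.01, and spanned 0 to 1 with 1 library left out. Changes of sign were small: Pfkl was 0.0256 by limma-voom, 0.0088 with the replicate block and 0.1186, 0.1442 and 0.1186 in the FPKM fits, Tpi1 was 0.0195, 0.0173, 0.1272, 0.1283 and 0.1272 in the same fits, and P4ha1 was 0.0384, 0.0421 and 0.0384 by FPKM. With 1 library left out, the ranges that crossed 0 were -0.7102 to 0.0611 for Pfkl, -0.2868 to 0.0623 for Pgam1, -0.4618 to 0.1922 for Tpi1, -0.5476 to 0.0543 for Egln1, -0.4704 to 0.1249 for P4ha1, -0.0047 to 0.115 for Srsf1, -0.1122 to 0.1913 for Ldha, -0.0574 to 0.45 for Hif1a, -0.0554 to 0.655 for Ero1l and -0.3418 to 0.014 for Hk2. The cause was not tested. The replicate block gave 12 lower and 1 higher, beside 11.0% and 10.7% of all genes, with Slc2a3 called (-1.99, adjusted p = 0.00246). Deviations of same-numbered libraries correlated at 0.222, 0.0128 and 0.272, and WT replicate 2 correlated best with Srsf1-cKO replicate 1 (0.201). The values for replicates 1 and 3 were the highest of all pairs. Deviations within a group of 3 are tied to each other, so these values cannot decide whether the numbers mark pairs or a batch. The labels do not say either, and the main fit therefore had no block.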
